A study of Mus musculus with 12 samples.

Results

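The genes described here are 37 genes of the contractile apparatus and metabolism of skeletal muscle, chosen as a list of named symbols and measured in RNA-seq libraries of mouse liver and brain. All 37 were found among the 25239 genes of the count table. Aged male C57BL/6J wild type mice of 24 months were either left as controls or kept in a chamber at 40 ± 0.5 °C and 60 ± 5% relative humidity, with 3 h of exposure on each of 15 days. Liver and brain gave 4 groups (liver control, liver heat stress, brain control and brain heat stress) with 3 libraries in each, so 12 libraries in all. The study's methods give 3 animals per treatment with both organs taken, so the tissues probably share mice, but which liver and brain library came from 1 animal is not stated. How the control mice were housed during the exposure hours is not given in the sources used here. Each library was made from poly(A) RNA of a piece of bulk frozen tissue, and in bulk samples fewer cells of a type and less RNA per cell cannot be told apart. Total counts ran from 10466198 to 15609040 per library.

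Skeletal muscle contracts when thick filaments of myosin pull on thin filaments of actin. Calcium released from the sarcoplasmic reticulum frees the thin filament by binding troponin, and a calcium pump returns it to the store. Fast and slow fibres build the same machine from different genes: each fibre type has its own myosin heavy chains, light chains and troponin subunits, while actin, titin, creatine kinase and myoglobin are made in both. Hepatocytes, the main cells of the liver, have no sarcomeres. By this division 13 members were fast, 5 were slow and 19 were shared.

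The 6 liver libraries fell far apart in these genes. The members together took 0.423% of all counts in heat stress 2 (95% Wilson interval 0.419 to 0.426%) and 0.0789% in control 1 (0.0775 to 0.0803%). In the other liver libraries they took 0.00514% (control 2), 0.00464% (control 3), 0.00498% (heat stress 1) and 0.0052% (heat stress 3). The share in heat stress 2 was 81.3 times, and that in control 1 15.2 times, the highest share among the other 4 libraries. These intervals cover counting error only. That both libraries would stand highest was known when the list was drawn up, so their rank is a description and no test was made of it. One of the libraries was a control and the other was exposed to heat, so the split did not follow the treatment. All 37 members had more than 3 counts in control 1 and in heat stress 2. In control 2, control 3, heat stress 1 and heat stress 3, 15, 8, 14 and 23 members did, and 12, 23, 12 and 3 members had no count. A count of 0 in control 3, the shallowest library, allows a share of up to 2.87e-05% of its counts. In the 6 brain libraries the members took between 0.0142 and 0.0182%, with no library apart from the others.

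**Figure D1:**
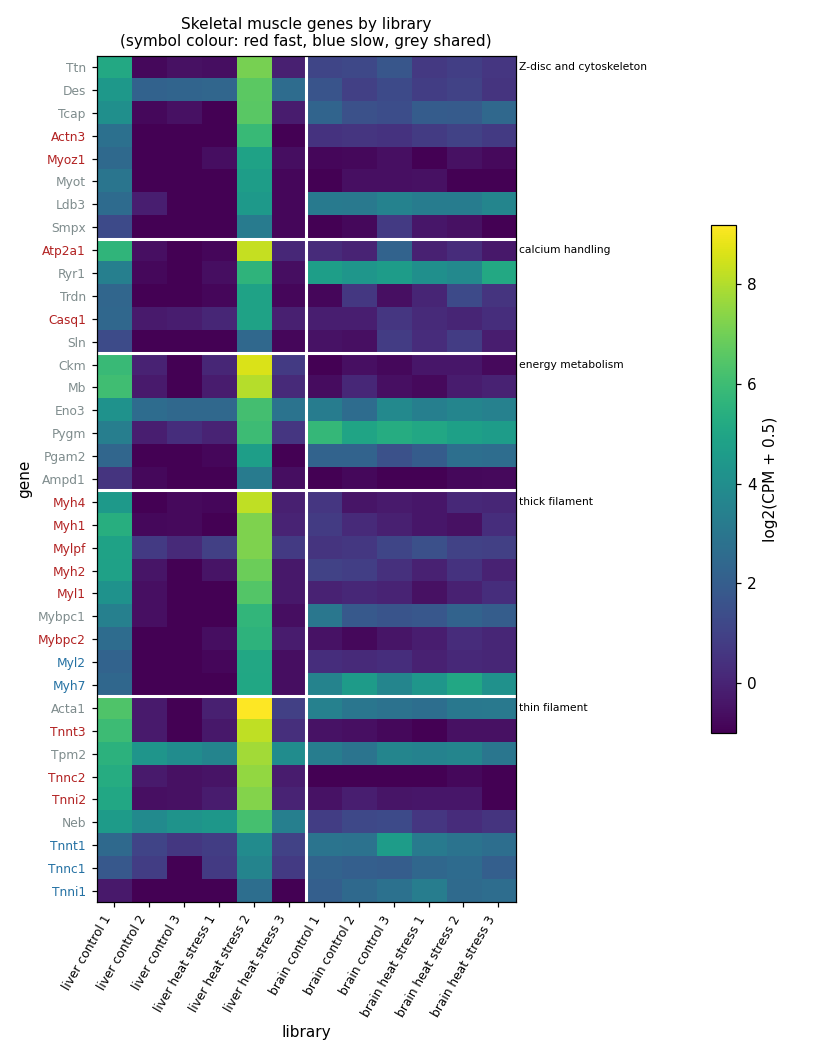
Heat map of the level of the 37 members (rows, by role in muscle) in the 12 libraries (columns), as log2 of CPM (counts scaled to 1e+06 per library) plus 0.5. Liver control 1 and liver heat stress 2 are bright over nearly the whole list, where the summed member share was 0.0789% and 0.423%, while the other 4 liver libraries are dark except for Neb, Tpm2, Des and Eno3; in brain a different subset, with Pygm, Ryr1 and Myh7, is the brighter one.

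The bases before the start of 4 members are shown because their counts carry the comparison of fibre types and the highest level per length. The sequences are the 150 bases upstream of the RefSeq start (GRCm38.p6, the mm10 build) on the strand of the gene, 5′ to 3′. The myosin heavy chains of adult fast fibres lie side by side on chromosome 11, and their windows are at chr11:67199952-67200101 (Myh1, plus strand), chr11:67170877-67171026 (Myh2, plus strand) and chr11:67237662-67237811 (Myh4, plus strand). Skeletal actin, Acta1, is at chr8:123894776-123894925 (minus strand). Capitals mark matches to the motifs named after the sequences.
Myh1: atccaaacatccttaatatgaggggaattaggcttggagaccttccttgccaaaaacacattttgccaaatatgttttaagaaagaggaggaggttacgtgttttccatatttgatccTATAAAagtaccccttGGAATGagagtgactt
Myh2: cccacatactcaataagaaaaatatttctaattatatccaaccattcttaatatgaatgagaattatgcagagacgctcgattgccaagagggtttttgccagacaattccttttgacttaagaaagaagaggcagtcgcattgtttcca
Myh4: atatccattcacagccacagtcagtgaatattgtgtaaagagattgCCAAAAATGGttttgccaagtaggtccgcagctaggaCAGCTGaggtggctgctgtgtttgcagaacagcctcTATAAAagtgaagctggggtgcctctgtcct
Acta1: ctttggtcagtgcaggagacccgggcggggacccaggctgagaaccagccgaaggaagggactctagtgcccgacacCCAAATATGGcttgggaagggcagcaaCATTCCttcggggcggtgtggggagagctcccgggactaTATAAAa

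The motifs were searched on both strands of the 250 bases upstream of each start. In Myh4 the capitals mark a CArG box 104 bases before the start, the E-box CAGCTG 67 bases before and TATAAA 31 bases before. The Myh1 window held TATAAA 32 bases before the start and an MCAT motif (CATTCC, here on the other strand) 16 bases before. Acta1 held a CArG box at 73, MCAT at 46 and TATAAA at 7 bases before the RefSeq start. In the 150 bases of Myh2 neither that E-box, the MCAT motif, the TATA motif nor the CArG box was found. The same held for the 150 bases of Ckm and Tnnc2, which were scanned too and are not shown. The set of RefSeq upstream sequences used here held windows for 27 of the 37 members, 33 windows in all. Actn3, Tnni2, Neb, Trdn, Ampd1, Tnnt3, Sln, Tcap, Myoz1 and Myot had no entry in that set. The E-box CAGCTG, the form bound by the MyoD family of muscle regulators, was in 17 of the 33 windows (51.5%) and in 13% of all 32817 windows of that length. The wider form CANNTG, which includes CAGCTG, was in 81.8% against 66.2%. MCAT was in 8 of the 33 windows (24.2% against 12.6%) and TATAAA in 6 (18.2% against 12.4%). The MEF2 motif was in 4 windows (12.1% against 2.92%) and the CArG box in 4 windows of 3 members (12.1% against 1.47%). A match is a run of letters and was not measured as a bound site.

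The thick filament genes were high in the same pair of liver libraries, fast and slow ones alike. Myh4, the heavy chain of fast 2B fibres, had 351, 0 and 1 counts in liver controls 1 to 3 and 1, 3978 and 6 counts in liver heat stress 1 to 3. Myh1, the 2X heavy chain, had 650, 1 and 1 counts in the controls and 0, 2003 and 7 under heat stress. Myh2, the 2A heavy chain, had 439, 3 and 0 counts in the controls and 3, 1612 and 4 under heat stress. Each of them was thus near 0 in 4 of the 6 livers and above 350 counts in control 1 and heat stress 2. Myh7, the slow heavy chain that the heart ventricle also uses, followed with 75, 0 and 0 counts in the controls and 0, 448 and 2 under heat stress. The light chain genes behaved alike: the fast regulatory light chain Mylpf had 452 and 2004 counts in control 1 and heat stress 2 and 7 to 19 in the others. For the fast essential light chain Myl1 these were 278 and 1200 against at most 4. The slow regulatory light chain Myl2 had 67 and 456 counts against at most 2. Of the myosin binding proteins, which sit along the thick filament, Mybpc1, counted here as shared between fibre types, had 160 and 694 counts against at most 2, and the fast form Mybpc2 had 88 and 643 against at most 5.

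The thin filament held the most abundant member. Acta1, the actin of the skeletal sarcomere, had 1308, 4 and 0 counts in the liver controls and 6, 7900 and 19 under heat stress. In CPM these were 83.8, 0.331 and 0 in the controls and 0.436, 583 and 1.39 under heat stress. Against the highest of the other 4 livers, Acta1 was 60.2 times higher in control 1 and 419 times higher in heat stress 2. The fast troponin genes had the same form: Tnnt3 (the tropomyosin-binding subunit) had 972 and 4034 counts in control 1 and heat stress 2 and at most 11 in the others. Tnni2 (the inhibitory subunit) had 528 and 2129 against at most 7, and Tnnc2 (the calcium-binding subunit) had 613 and 2479 against at most 5. The slow troponins were lower. Tnnt1 had 79, 20 and 11 counts in the controls and 18, 196 and 21 under heat stress. Tnnc1, which the heart shares, had 46, 16 and 0 counts in the controls and 16, 159 and 16 under heat stress. Tnni1 had 5 counts in control 1, 81 in heat stress 2 and none in the other 4 livers. The remaining thin filament members were measured in every liver: Tpm2, a tropomyosin that smooth muscle also makes, had 721, 233 and 159 counts in the controls and 160, 2950 and 203 under heat stress. Neb, the giant nebulin that runs along the thin filament, had 367, 170 and 189 counts in the controls and 279, 983 and 137 under heat stress. For Neb, control 1 was only 1.16 times and heat stress 2 3.58 times the highest of the other 4 libraries in CPM.

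Z-disc and cytoskeletal members anchor the filaments. Ttn, the titin spring, had 540 and 1837 counts in control 1 and heat stress 2 and 1 to 6 in the others. Actn3, the alpha-actinin of fast fibres, had 99 and 777 counts there and no count in the other 4 livers. Against a floor of 3 counts over those 4 libraries together, Actn3 was at least 106-fold higher in control 1 and at least 955-fold higher in heat stress 2. Tcap, the titin cap, had 253 and 1286 counts against at most 5. Myoz1, a calcineurin-binding Z-disc protein of fast fibres, had 79 and 392 against at most 2, and Myot (myotilin) had 114 and 339 against at most 1. The Z-disc adaptor Ldb3 had 85 and 304 counts against at most 5, and Smpx, a small muscle protein, had 30 and 121 against at most 1. Des, the desmin of intermediate filaments in all muscle types and in stellate cells of the liver, was the exception in this group. It had 324, 49 and 46 counts in the controls and 63, 1315 and 75 under heat stress, so it was measured in all 6 livers.

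Calcium handling members were led by Atp2a1, the calcium pump of fast fibres, with 783, 2 and 0 counts in the controls and 1, 4221 and 8 under heat stress. Ryr1, the calcium release channel, had 158 and 655 counts in control 1 and heat stress 2 and at most 2 in the others. Casq1, the fast calsequestrin that stores calcium, had 74 and 386 against 4 to 8. Trdn (triadin, which ties calsequestrin to the channel) had 72 and 390 counts against at most 1. Sln (sarcolipin, a small regulator of the pump) had 31 and 67 against at most 1. Of the energy metabolism members, the muscle creatine kinase Ckm had 918, 6 and 0 counts in the controls and 8, 5365 and 16 under heat stress. Myoglobin, Mb, which stores oxygen, had 1033, 4 and 0 counts in the controls and 5, 3603 and 9 under heat stress. Both were again high in the same pair of libraries. The muscle glycogen phosphorylase Pygm had 154 and 855 counts against 5 to 14, the muscle phosphoglycerate mutase Pgam2 had 72 and 350 against at most 1, and the AMP deaminase Ampd1 had 15 and 120 against at most 2. Beta-enolase, Eno3, was measured in every liver, with 277, 67 and 52 counts in the controls and 68, 964 and 93 under heat stress.

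Heat stress 2 exceeded control 1 for every member, but not by 1 common factor. The ratio of CPM between the libraries ranged from 2.49 to 18.7 with a median of 4.97. Its median was 5.11 over the fast members (3.55 to 13.1), 6.88 over the slow members (2.86 to 18.7) and 4.71 over the shared members (2.49 to 9.21). For Myh4 the ratio was 13.1 (95% exact interval 11.7 to 14.6), for Myh2 4.23 (3.8 to 4.71) and for Myh1 3.55 (3.25 to 3.88), so the fast heavy chain genes differed among themselves by more than counting error. Ratios at the ends of the range rested on few counts: Tnni1 had a ratio of 18.7 (7.67 to 59.0) and Sln one of 2.49 (1.6 to 3.94). Each side of these ratios is 1 library, so they compare those libraries and not the conditions.

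**Figure D2:**
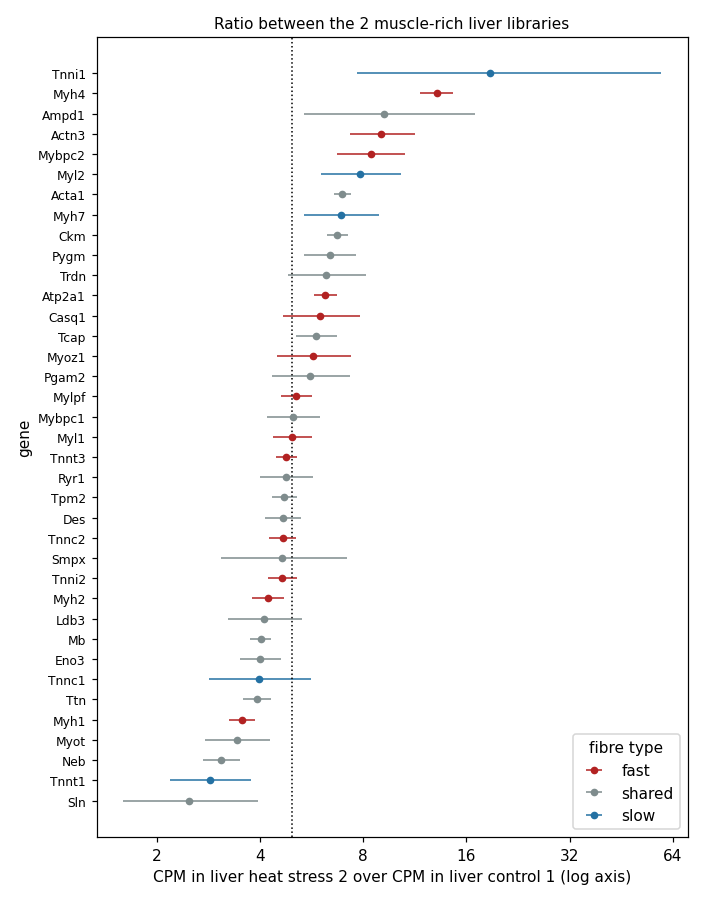
CPM in liver heat stress 2 over CPM in liver control 1 for each member (log axis), with 95% exact intervals for counting error and the median of 4.97 as a dotted line; colours give the fibre type. Every ratio is above 1, and Myh4, at 13.1, sits above the intervals of Myh1 and Myh2.

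The mix of fibre isoforms differed between control 1 and heat stress 2. Of the counts of the 4 adult myosin heavy chains, Myh1 held 42.9% in control 1 (95% Wilson interval 40.4 to 45.4%) and 24.9% in heat stress 2 (24.0 to 25.9%). Myh2 held 29.0% (26.7 to 31.3%) and 20.0% (19.2 to 20.9%). Myh4 held 23.2% (21.1 to 25.4%) and 49.5% (48.4 to 50.6%). The 2X gene was the most counted heavy chain in control 1 and the 2B gene in heat stress 2, while the slow Myh7 held 4.95% (3.97 to 6.16%) and 5.57% (5.09 to 6.09%), with overlapping intervals. The fast heavy chain genes are near-identical neighbours, and how reads that fit several genes were counted is not given in the sources used here, so the split among them is uncertain. The slow share was small for each of the other pairs as well. Myl2 held 12.9% (10.3 to 16.1%) of the regulatory light chain counts in control 1 and 18.5% (17.1 to 20.1%) in heat stress 2. Tnnt1 held 7.52% (6.07 to 9.27%) and 4.63% (4.04 to 5.31%) of troponin T. Tnni1 held 0.938% (0.401 to 2.18%) and 3.67% (2.96 to 4.53%) of troponin I, and Tnnc1 held 6.98% (5.27 to 9.19%) and 6.03% (5.18 to 7.0%) of troponin C. Per kilobase of exon the shares were lower, at 7.47 and 11.0% for Myl2 and 0.392 and 1.56% for Tnni1. The slow share thus lay higher in heat stress 2 for the light chain and troponin I and lower for troponin T, beyond counting error. Tnnt1 also had 11 to 21 counts in the 4 low livers, where it held 65.6 to 100.0% of troponin T. This level was not subtracted, so the troponin T difference is uncertain. Tnnc1 likewise had 16, 0, 16 and 16 counts in control 2, control 3, heat stress 1 and heat stress 3, against 46 in control 1. Its share in control 1 is thus uncertain as well. In brain the slow gene held most of the counts of 4 of the pairs: its median share over 6 libraries was 90.9% for myosin heavy chain, 97.5% for troponin T, 95.8% for troponin I and 100.0% for troponin C. For the regulatory light chain the fast gene led in brain too, with a median slow share of 30.1%.

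**Figure D3:**
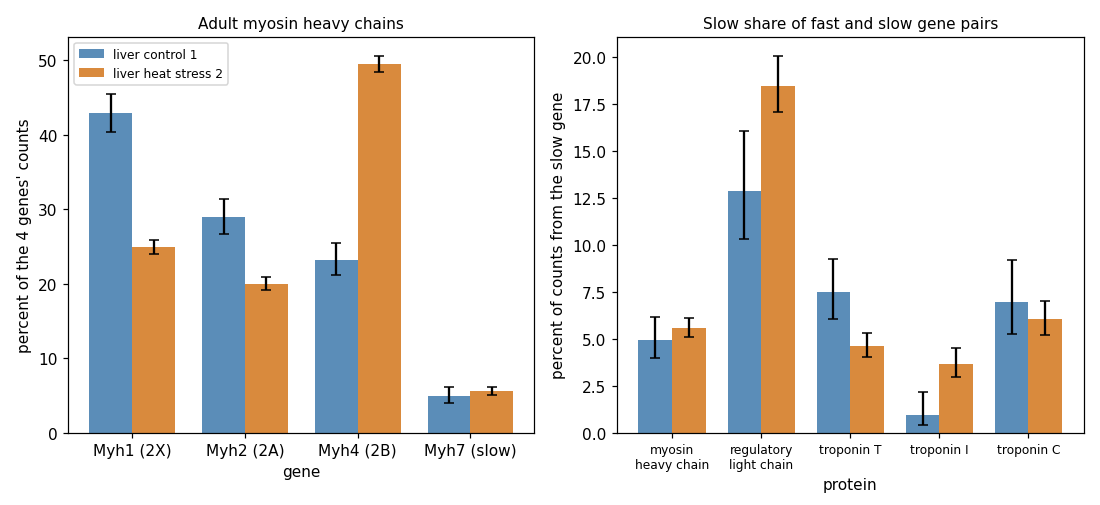
Left, percent of the counts of the 4 adult myosin heavy chain genes held by each gene; right, percent of counts held by the slow gene of each protein (axes start at 0), in liver control 1 and liver heat stress 2, with 95% Wilson intervals as bars. Myh1 leads in control 1 at 42.9% and Myh4 in heat stress 2 at 49.5%. The slow gene holds at most 18.5% of the counts of any pair, not corrected for exon length.

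To compare genes with each other, CPM was divided by exon length in kilobases, using all annotated exons of a gene. On this scale Acta1 was highest in both libraries (54.6 CPM per kb in control 1 and 379 in heat stress 2), followed by Tnnc2 (49.1 and 229). Mb, Tnnt3 and Mylpf completed the first 5 places in both. In brain the order was another one, with Pygm (median 9.99 CPM per kb), Eno3 (5.99) and Pgam2 (5.02) ahead of Acta1 (5.01). These last 3 lay close together, and no test was made of their order.

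In brain, most members were low and a few were not. Pygm, which astrocytes also make, had 802, 364 and 469 counts in the brain controls and 369, 304 and 254 under heat stress. Ryr1 had 373, 243 and 287 in the controls and 176, 151 and 370 under heat stress, and Myh7 had 164, 283 and 144 against 218, 376 and 180. These are levels that none of the 4 low livers reached. Acta1 had 155, 90 and 79 counts in the brain controls and 65, 88 and 86 under heat stress. Tnni1 had 55 to 104 counts, Ldb3 99 to 131, Tcap 26 to 64, and Tnnt1 62 to 292. The fast troponins were among the lowest members: Tnnc2 had 1 count in the 6 brain libraries together, Tnnt3 at most 3 in any of them and Tnni2 at most 5. Ckm had at most 3. Slow members took 0.00271 to 0.0052% of the brain counts and fast members 0.000645 to 0.00108%.

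Whether heat stress changed these genes in liver was asked with edgeR's quasi-likelihood test over the 3 control and 3 heat stress libraries, with p-values adjusted over all genes tested by the Benjamini-Hochberg method. A gene was called at an adjusted p under 0.05 and a change of more than 1 on the log2 scale. None of the 12296 genes tested was called (0%), while 718 (5.84%) had an unadjusted p under 0.05 and DESeq2 called 47. Only 11 members had enough counts to be tested (Acta1, Ckm, Mylpf, Tnnt1, Tnnt3, Tnnc1, Eno3, Neb, Des, Tpm2 and Pygm), and the others, with Myh4, Atp2a1 and Ttn among them, had enough counts in too few libraries. None of the 11 was called by either tool, and none had an unadjusted p under 0.05. DESeq2 gave no adjusted p for some of them, with Acta1, Ckm and Tnnt3 among these, so it could not call those. Their fitted log2 fold changes were all above 0, with a median of 1.79 against 0.01 over all genes tested. Sign and median were set by control 1 and heat stress 2, the libraries named in the choice of members, so nothing is read from this contrast. For Acta1, the shared member of the thin filament, the mean was 28.0 ± 48.3 CPM in control and 195 ± 336 CPM under heat stress (SD, n = 3). Its log2 fold change was 2.69 (SE 3.31) with an adjusted p of 0.962 by edgeR. For Ckm it was 2.63 (SE 3.11, adjusted p = 0.96 by edgeR), for the fast Tnnt3 2.14 (SE 3.07, adjusted p = 0.965) and for the slow Tnnt1 1.07 (SE 1.02, adjusted p = 0.947). The SD exceeded the mean in both groups for Acta1, since 1 library held nearly all of each group's counts. Without heat stress 2 the median of the members tested was -0.95, without control 1 it was 3.04, and without both it was 0.25 over the 7 members that could then be tested. Without both and with no filter on low counts it was 1.34 over 35 members, 31 of them above 0 and none called. The groups overlapped for 37 of 37 members, which follows from the choice of genes known to be high in 1 library of each group. Of all genes tested in liver 10.4% did not overlap, and nothing is read from the contrast.

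In brain the same comparison called none of 14806 genes (0%), with 2969 (20.1%) at an unadjusted p under 0.05 and 30 called by DESeq2. Of the 20 members tested none was called by edgeR or DESeq2, and 4 had an unadjusted p under 0.05, a share of members near that of all genes. Those 4 were lower under heat stress: Neb had 19, 22 and 23 counts in the controls and 11, 8 and 10 under heat stress, and Ttn had 25, 22 and 33 against 12, 15 and 11. Neither gene overlapped between the groups. The log2 fold change was -0.91 for Neb (SE 0.34, adjusted p = 0.205 by edgeR) and -0.84 for Ttn (SE 0.32, adjusted p = 0.206). Pygm was at -0.55 (SE 0.21) and Myh2 at -1.01 (SE 0.44), with overlapping groups. DESeq2 gave no adjusted p for Neb, Ttn and Myh2, nor for Mybpc1 and Actn3, so it could not call these members. Among the members tested, Neb, Ttn and Actn3 did not overlap, 3 of 20, where 25.1% of all genes tested did not. Acta1 was at -0.18 (SE 0.23), Ryr1 at -0.12 (SE 0.31) Mybpc1 at -0.37 (SE 0.41), Actn3 at 0.45 (SE 0.33) and Tnnt1 at -0.81 (SE 0.45). With 3 libraries a group the smallest p of an exact permutation test is 0.1, so no such test was made for single genes.

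The tissues were compared over all 12 libraries, with the mean of both liver groups set against the mean of both brain groups. Of 15824 genes tested, 4324 (27.3%) were called higher in liver and 5902 (37.3%) lower. Of the 27 members tested 14 were called higher in liver and 1, Tnni1, was called lower. The members were chosen as high in control 1 and heat stress 2, which enter this fit, so their count beside that of all genes restates the choice. By edgeR the log2 fold change was 9.61 for Ckm (SE 2.62, adjusted p = 0.00704), 6.81 for Myh4 (SE 2.13), 6.65 for Myh1 (SE 2.08), 6.62 for Atp2a1 (SE 2.16), 5.61 for Myh2 (SE 1.84) and 5.09 for Mylpf (SE 1.54). For the large structural members it was 5.45 for Neb (SE 0.48), 5.02 for Ttn (SE 1.75) and 4.67 for Des (SE 0.97). The rest were Acta1 at 4.39 (SE 1.8, adjusted p = 0.0451), Casq1 at 3.89, Smpx at 3.6, Tpm2 at 3.37 and Eno3 at 1.79, with Tnni1 at -2.43 (SE 0.99). Not called were Actn3 at 3.69 (adjusted p = 0.054 by edgeR), Mybpc1 at 2.11, Ryr1 at -0.42 and Tnnt1 at -0.16. The others not called were Trdn at 3.6, Tcap at 3.1, Sln at 1.87, Pgam2 at 0.94, Tnnc1 at 0.43, Ldb3 at -0.17, Pygm at -0.79 and Myh7 at -1.01. DESeq2 called 2 members in place of 15 and gave no adjusted p for Ckm, Myh4, Acta1 and others. With condition and replicate number together as a block, which pairs the tissues if a number marks 1 mouse, 6 members were called. Acta1 lost the call at 0.76 (adjusted p = 0.782 by edgeR), as did Ttn at 3.32 (0.217), Mylpf at 3.55 (0.113) and Tnni1 at -3.05 (0.0651). So did Atp2a1 at 5.51 (0.0947), Myh2 at 4.57 (0.0686), Casq1 at 2.87 (0.0645), Eno3 at 1.23 (0.113) and Smpx at 3.07 (0.124). Leaving out any 1 brain library lost the call of Acta1 (adjusted p from 0.0877 to 0.0957 by edgeR), of Ttn (0.0505 to 0.0558) and of Tnni1 (0.0605 to 0.0803), and that of Eno3 and Smpx for 5 of the 6. Tnni1 was also not called with no filter (0.0699) or without liver control 1, 2 or 3 (0.0719, 0.108 and 0.0854). The call of Acta1 was also lost with no filter (0.0579) and in controls only (0.145). In controls only, Ttn (0.0731), Myh2 (0.0564) and Eno3 (0.0656) lost it too. Smpx lost its call with no filter (0.0742) and with DESeq2 size factors in edgeR (0.0504). Single liver libraries moved the fold changes themselves. Without heat stress 2, the log2 fold change was 2.58 for Myh4, 2.92 for Myh1, 2.52 for Atp2a1, 2.02 for Myh2, 1.44 for Ttn and 0.57 for Acta1. Without control 1 these were 3.08, 2.94, 2.77, 2.44, 1.71 and 0.65 in the same order, and Smpx was at 0.15. Over all single libraries left out, Neb ran from 4.89 to 5.65, Des from 3.3 to 4.92 and Tpm2 from 2.1 to 3.62. Over the same fits Ckm ran from 6.05 to 10.0, Mylpf from 2.48 to 5.37, Casq1 from 1.8 to 4.16, Eno3 from 0.72 to 2.04 and Tnni1 from -6.56 to -2.14. Without control 1, 3 members were called, namely Neb, Des and Tpm2. There Ckm (adjusted p = 0.364 by edgeR), Mylpf (0.18), Casq1 (0.178) and Eno3 (0.128) were not called. Without heat stress 2, 13 were called, 7 of them lower in liver. Without control 2 or control 3 the count was 24 or 26, and without heat stress 1 or heat stress 3 it was 28, with all 37 members then tested.

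Leaving out both muscle-rich libraries changed the sign of 10 of the 21 members tested in both fits. The members were chosen as high in those libraries, so lower values without them follow from the choice and are no test. Of the 14 called higher in liver, 8 could still be tested, of which 3 stayed called higher (Neb, Des and Tpm2) and 3 changed sign (Acta1, Ttn and Myh2). Without control 1 and heat stress 2, 16049 genes were tested, of which 4303 (26.8%) were called higher in liver and 6271 (39.1%) lower. Of the 21 members then tested 3 were called higher in liver and 15 lower. Most of the 21 passed the filter on low counts through brain alone, and members near 0 in brain, such as Ckm, Mb, Tnnt3 and Tnnc2, were not tested, so the filter largely fixed the excess of lower calls. The higher ones were Neb at 4.74, Des at 2.62 and Tpm2 at 1.72 on the log2 scale, and these also had counts in every liver library. Among the lower ones, Acta1 was at -3.17 (SE 0.42, where 4.39 was fitted over all libraries), Ttn at -1.86, Mybpc1 at -4.45, Tcap at -3.32, Pygm at -4.59, Ryr1 at -6.91, Ldb3 at -5.55, Tnnt1 at -1.68 and Tnnc1 at -1.15. Myh7, Trdn, Sln and Pgam2 had only 1 or 2 counts in the 4 livers together, so their summed counts are given as ratios of CPM, brain over those livers, with 95% exact intervals for counting error. The ratio was 480.0 for Myh7 (133 to 3970.0), 215 for Pgam2 (38.2 to 8500.0), 32.4 for Sln (5.52 to 1310.0) and 19.0 for Trdn (5.01 to 161). Tnni1 and Actn3 had no count in the 4 livers, so their fitted values are no bound. Against a floor of 3 counts over those 4 libraries together, the brain median was at least 91.4-fold higher for Tnni1 and at least 17.8-fold higher for Actn3. Myh2 (-1.13), Mylpf (0.64) and Eno3 (0.22) were tested and not called.

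**Figure D4:**
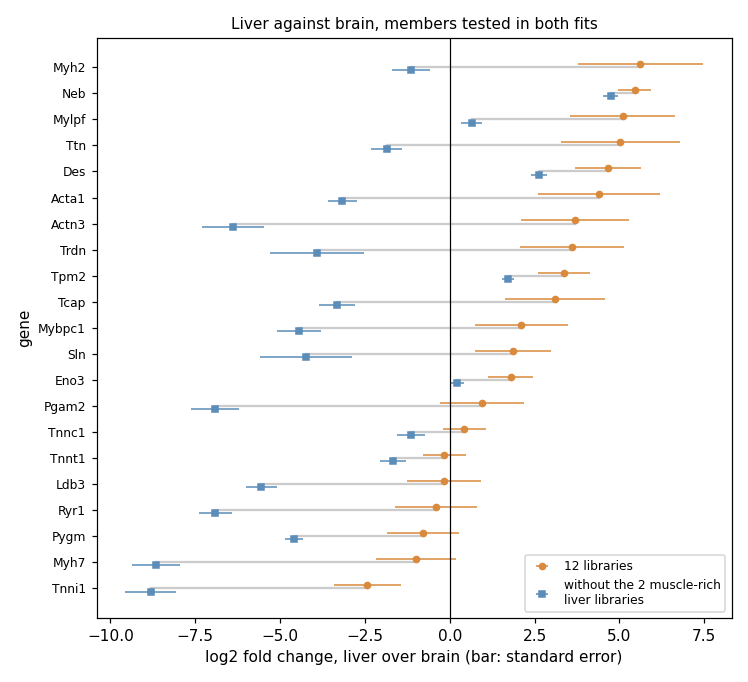
Log2 fold change of liver over brain, with standard errors as bars, for the 21 members tested in both fits: over 12 libraries (circles) and without liver control 1 and liver heat stress 2 (squares). Neb, Des and Tpm2 stay to the right of 0 in both, while Acta1 goes from 4.39 to -3.17 and Ttn from 5.02 to -1.86. Squares of Tnni1, Actn3, Myh7, Pgam2, Sln and Trdn rest on 0 to 2 liver counts and are fitted values only. The members were chosen as high in the libraries left out, so the shift to the left is no test.

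The genes that were at least 4-fold higher in both control 1 and heat stress 2 than in each other liver library were counted among those with 10 or more counts in both, on CPM scaled by TMM within liver. They were 123 of 12174 genes (1.01%), and 30 of the 36 eligible members were among them. The members were listed as high in this pair, so the contrast with all genes restates the choice and is no result. The exceptions were Tpm2, Neb, Tnnt1, Tnnc1, Des and Eno3, and Tnni1 had too few counts in control 1. At 2-fold, 35 of 36 members qualified. Of 59 further skeletal muscle genes on a separate list, 41 were eligible and 24 of those were among the 123. The remaining 69 were led by Slc25a4 (the adenine nucleotide carrier of heart and muscle mitochondria), with 536 and 1862 counts in control 1 and heat stress 2 against 56 to 106. They also included Ckmt2, the mitochondrial creatine kinase of muscle (299 and 903 against at most 2), and the imprinted H19 RNA (176 and 728 against 2 to 4). Over the 6 livers, the genes outside the list whose log2 CPM was most like the mean of the tested members included Git2 (Pearson r = 0.997), Pfkm (0.994), Rab11fip5 (0.993), Slc25a4 (0.993), Tmem38a (0.992), Ldhb (0.991), Hspg2 (0.99), Atxn1l (0.989) and Cryab (0.988). These correlations describe 6 libraries in which the same pair stands apart, and carry no test. They take no account of the size of a difference. Git2 had 152 and 166 counts in control 1 and heat stress 2 against 77 to 100 in the others. Hspg2 had 227 and 260 against 117 to 157, and both steps were far smaller than that of Slc25a4.

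The lists of other tissue markers are given by their summed levels, and no test compares them. All 12 hepatocyte markers had 10 or more counts in every liver library, and their summed level was 101000 to 139000 CPM. The 59 further skeletal muscle genes summed to 269 CPM in control 1, 1020 CPM in heat stress 2 and 84.1 to 97.3 CPM in the 4 low livers, and 0 of the 16 tested were called in liver. Not every gene of that list followed the pair: Csrp3 had 250, 352 and 205 counts in the controls and 458, 331 and 304 under heat stress. Cardiac markers summed to 2.5 CPM in control 1 and 2.8 CPM in heat stress 2, against 1.99 to 3.66 CPM elsewhere, and the atrial and ventricular myosin gene Myh6 had no count in any liver. Skin markers summed to 2.29 to 4.22 CPM over the 6 livers, with Krt10 at 22 to 48 counts and the basal keratins Krt5 and Krt14 at 0 in each. Neuron and glia markers summed to 62.0 CPM in control 1 against 19.3 to 32.8 CPM in the others, and Snap25, a synaptic protein, had 132 counts there against 0 to 14. The neuronal kinase gene Camk2a had 84 counts in control 1 and 52 in heat stress 2 against at most 2 in the low livers. Scaled by Snap25 to control 1, the brain level of each member came to at most 1.49 counts (Pygm). This scaling rests on a single gene, and a brain source of the member counts was not tested. In heat stress 2 the fat cell genes Adipoq and Plin1 had 48 and 20 counts against at most 3 and 2 in the other livers, and mesothelial markers summed to 9.37 CPM there and 6.53 CPM in control 1 against 2.62 to 4.25 CPM. Smooth muscle, tendon and fascia lists were at 76.8 and 140 CPM in control 1 and 98.9 and 203 CPM in heat stress 2, against 58.8 to 89.1 and 123 to 192 CPM. The adipose list as a whole was carried by Pck1, which hepatocytes also make (39631 counts in heat stress 2 against 16660 to 32581). Cfd, Retn, Adig and Fabp4 of that list also had their highest count in heat stress 2. Cidea did not, with 182 counts there against 377, 291 and 255 in control 1, control 2 and heat stress 1. Lep and Ucp1 had at most 2 counts in any liver. Exocrine pancreas markers were highest in control 2, at 129 CPM. The column names of control 2, heat stress 1 and heat stress 3 carry the suffix 2nd, whose meaning is not given. Control 1 and heat stress 2 lack it, but so does control 3, which had the lowest member share. The part of any of these in the muscle counts was not tested.

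**Figure D5:**
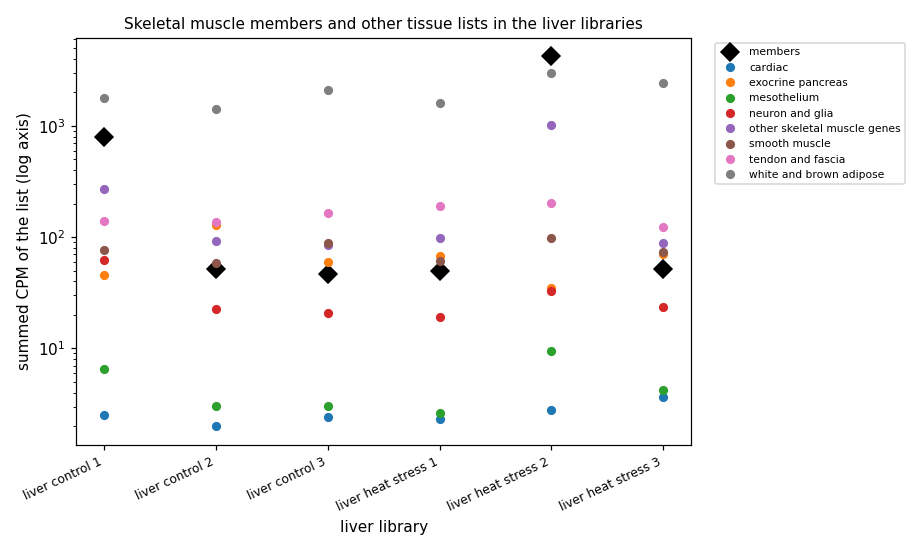
Summed CPM (log axis) of the 37 members (black diamonds) and of the other tissue lists in the 6 liver libraries. The members lie far above their level elsewhere in control 1 and heat stress 2. The further skeletal muscle genes as a sum, though not each gene, are also higher there (269 CPM in control 1 against at most 97.3 in the low livers). The cardiac list stays between 1.99 and 3.66 CPM.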

How the data were processed

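Aged mouse brain and liver were profiled by poly(A) RNA-seq, with 3 libraries in each of 4 groups. The authors deposited a table of read counts per gene, which per the submitters' processing notes was made with FastQC 0.11.9, Trimmomatic 0.39, HISAT2 2.2.1 on mm10 and featureCounts of Subread 2.0.1. The study's methods also describe another aligner and counter, so the exact route, the strand setting and the rule for reads that fit several genes are not settled by the sources used here. Files of the authors' own comparisons, which hold fold changes and p-values, were not used. Members and lists were chosen with earlier results of these data known.

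Counts were fitted with edgeR 4.0.16 (R 4.3.3, TMM, a minimum count of 10 and total of 15, robust quasi-likelihood F test, Benjamini-Hochberg adjustment over all genes tested). A gene was called at an adjusted p under 0.05 and an absolute log2 fold change over 1. CPM is the count scaled to a library total of 1e+06. DESeq2 1.42.0, other filters and scalings, left-out libraries and further terms were the alternatives. Shares carry 95% Wilson intervals and ratios exact binomial ones. A floor was 3 counts. Every member is named; fold changes are given for the member with the largest liver count per role and fibre type, and for called members; genes outside the list are from the 10 most correlated ones, not all of which are reported here. The rule also held the 3 most counted genes of each marker list, of which few are printed. Others (defining markers, brain members at a low unadjusted p, leading genes of the pair of libraries) were chosen after their values were seen. The fits were tested on simulated data, and no outcome of that test is reported here. Gene lengths are from GENCODE and upstream sequences from RefSeq.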

Additional observations from a re-analysis of the deposited data

How the results depend on the processing

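Under the alternatives, 384 values of single genes kept their direction and were labelled as unchanged in call. They include DESeq2 values without an adjusted p, such as Acta1 in liver and Neb in brain, for which no call could be made. Another 101 values, which are counts, medians and shares, were labelled the same under a loose tolerance and were not all equal. Among them, members called between tissues went from 15 to 21 with no filter. The liver median went from 1.79 to 0.96 with the replicate block. Without both muscle-rich libraries 18 members were called between tissues, but 15 of them were lower in liver. Of the single genes 82 values lost the call, 7 gained it and 22 changed sign, and of the other values 36 moved and 1 changed sign. Liver genes called were 47 with DESeq2, 8 with no low count filter, 13 in a fit of all libraries, 1 with the replicate block, 6 with the column suffix as a term, 0 to 24 with 1 replicate left out, 61 without both muscle-rich libraries and 114 with neither filter nor those libraries, the last chosen after seeing the data. The median log2 fold change of liver members ranged from -0.95 to 3.04 with 1 replicate left out and was 0.25 without both (1.34 with no filter as well). DESeq2 called 30 brain genes. Members called between tissues were 2 with DESeq2, 8 at a minimum count of 30, 5 in controls only, 6 with the replicate block and 3 to 28 with 1 replicate left out. Same-numbered control and heat stress libraries did not deviate together (correlations from -0.58 to 0.19). Same-numbered liver and brain libraries of 1 treatment correlated at 0.353, 0.339 and 0.113 in controls and 0.0493, -0.195 and 0.0373 under heat stress, so a shared mouse could not be settled. The cause of these shifts was not tested.

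With 1 replicate left out, the liver log2 fold changes ran from -5.19 to 9.01 (Tnnt3), -0.82 to 2.05 (Tnnt1), -4.88 to 9.97 (Acta1) and -4.44 to 8.86 (Ckm). In brain they ran from -0.65 to 0.3 (Mybpc1), -1.1 to 0.02 (Tnnt1), -0.34 to 0.04 (Acta1) and -0.65 to 0.13 (Ryr1). Between tissues they ran from -1.73 to 2.43 (Mybpc1), -1.13 to 0.26 (Tnnt1) and -2.07 to 3.98 (Actn3). Without both libraries the tissue values turned to -4.45 (Mybpc1), -3.17 (Acta1), -1.86 (Ttn), -1.13 (Myh2) and -6.39 (Actn3, a fitted value that is no bound, since it had no count in those livers).

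On the TMM effective library size the member share of heat stress 2 was 0.399%. Per kilobase of exon, the slow shares in control 1 and heat stress 2 were 3.77 and 4.15% (Myh7), 7.47 and 11.0% (Myl2), 5.52 and 3.37% (Tnnt1), 0.392 and 1.56% (Tnni1) and, in heat stress 2, 4.7% (Tnnc1). Myh2 held 26.6 and 18.0% of the heavy chains and Myh4 52.7% in heat stress 2.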
